A study of Mus musculus with 6 samples.

Results

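Serpina1e, one of the 5 mouse copies of alpha-1 antitrypsin, was the least abundant of those copies in sham-operated livers, and after vertical sleeve gastrectomy (VSG) it had the highest mean level per transcript length of the 10 serine protease inhibitors described here. The 10 genes are Serpina1a, Serpina1b, Serpina1c, Serpina1d and Serpina1e, and Serpina3c, Serpina3g, Serpina3k, Serpina3m and Serpina3n. They were taken by name from a table of 55385 genes and all 10 were found there. The edgeR filter on low counts kept 14454 genes for testing, and all 10 members passed it. Serpina3c passed only because of its counts in the VSG group.

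Serpins are suicide inhibitors. A flexible stretch near the carboxyl end, the reactive centre loop, is offered to a protease as bait, and when the protease cuts it the serpin snaps into a new shape and traps the enzyme in an inactive covalent complex. Alpha-1 antitrypsin, made mainly by hepatocytes and secreted into blood, is best known for restraining neutrophil elastase. Humans have a single gene each for alpha-1 antitrypsin (SERPINA1) and alpha-1 antichymotrypsin (SERPINA3), whereas mice carry clusters of copies whose loops differ, and several of the Serpina3 copies are acute phase genes of the liver.

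The samples were livers of C57BL/6 male mice that began a high-fat diet (HFD) at 6 to 8 weeks of age. After 10 weeks on HFD they underwent either VSG, which removes most of the stomach, or a sham operation, and both groups stayed on HFD for another 12 weeks. There were 3 Sham and 3 VSG livers with 1 poly(A) library each, numbered Sham 1 to 3 and VSG 4 to 6 in the labels. The feeding state at collection was not given in the sources used here, and neither was any batch.

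Total counts ran from 22804397 to 24191778 per library. Levels are given as CPM (counts scaled to a common library size, with TMM factors) for one gene across libraries, and the order of the 10 members is given as FPKM (CPM per kilobase of exon). Shares and ratios of counts and the highest CPM of a list are not corrected for length. The labelled tissue was checked with 8 hepatocyte markers, whose summed CPM ran from 90694 to 139479 in Sham and from 111370 to 141253 in VSG, and none of the 8 passed the test (at an unadjusted p under 0.05 in edgeR 1 was higher and 1 lower, as with DESeq2). All 10 neutrophil markers were higher after VSG in edgeR and DESeq2, and 3 of them in limma-voom. In Sham, 2 of the 10 had counts under 10 in every library. Only S100a8, S100a9 and Csf3r had at least 10 counts in each Sham library. The other genes of the list were tested only because of their VSG counts. The summed CPM of all 10 was 7.31 to 21.01 in Sham, and it reached 1586 in VSG 4, 127 in VSG 5 and 733 in VSG 6. The part of these cells in the values below was not tested, and in whole tissue more cells of a type cannot be told apart from more RNA per cell.

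Across the 10 members, expression of Serpina1e, Serpina3c and Serpina3n was higher after VSG at an adjusted p under 0.05 (edgeR quasi-likelihood test, Benjamini-Hochberg over all genes tested), no member was lower by edgeR, DESeq2 or limma or at an unadjusted p under 0.05, and 7 did not pass. Over all 14454 genes tested, 14.7% were called, 6.79% as higher and 7.87% as lower. By the other rules given beside gene lists below, 33.9% of all genes had an unadjusted p under 0.05 in edgeR, 18.7% were called by DESeq2 and 12.9% by limma-voom. In 5 members, the called ones plus Serpina1a and Serpina3k, every VSG value was above every Sham value. No overlap in this direction was found in 19.8% of all genes, and in either direction in 39.7%. Serpina3c is among both the 3 called members and these 5, though it was tested only because of its VSG counts. With a filter of 10 counts in every library, which removed it, the members called were Serpina1a, Serpina1e and Serpina3n. The log2 fold change was positive in 9 of the 10, with a median of 0.61 against 0.03 over all genes tested. The count of 3 members became 2 without Sham 1, 1 without Sham 3 and 0 without VSG 6, while the calls over all genes went from 2118 to 1214, 159 and 210. Together the 10 genes held 0.794% ± 0.175 (SD, n = 3) of all counts in Sham and 1.96% ± 0.252 (SD, n = 3) in VSG livers.

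**Figure D1:**
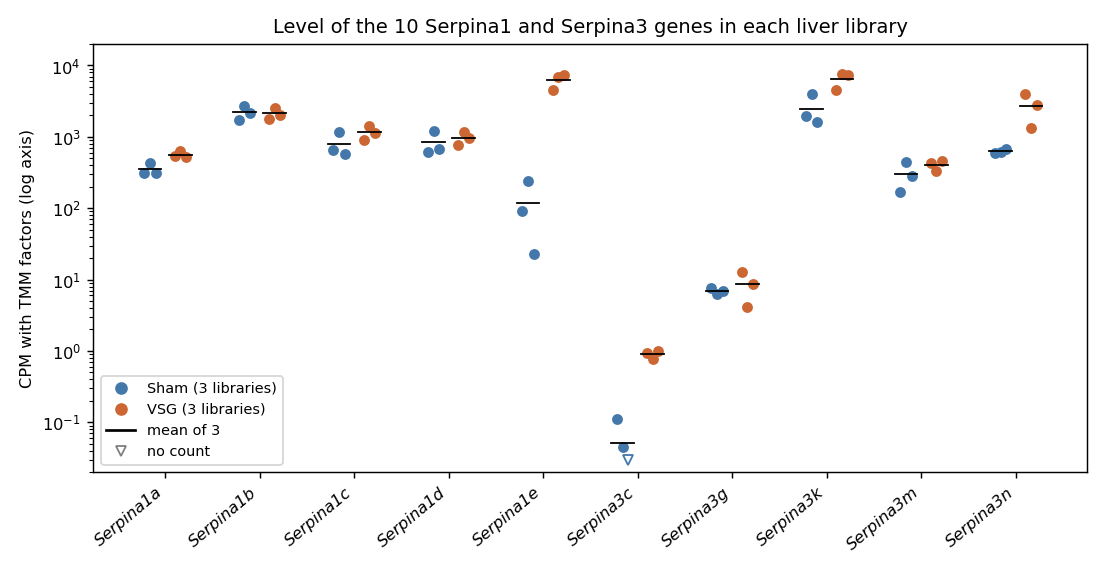
Level of each member in each library, in CPM on a log axis, with Sham libraries in blue, VSG libraries in orange and a bar at the mean of 3; an open triangle marks a library with no count. Serpina1e sits at 23.0 to 242 CPM in Sham and 4487 to 7259 CPM in VSG, while the Serpina1b points of both groups lie within the same range.

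The 5 Serpina1 copies lie next to each other on the minus strand of chromosome 12 (mm10, the GRCm38 assembly) between positions 103728156 and 103958975. Their coding sequences are 96.3% to 98.5% identical, so they are told apart by few bases. The part of the coding sequence that carries the reactive centre loop lies in the last exon of each gene, and it is printed here because it is where the copies differ in what they offer to a protease. Capitals mark bases that differ from Serpina1b, the copy with the most counts in Sham livers.
Serpina1b: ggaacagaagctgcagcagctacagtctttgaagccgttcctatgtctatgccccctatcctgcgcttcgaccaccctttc
Serpina1a: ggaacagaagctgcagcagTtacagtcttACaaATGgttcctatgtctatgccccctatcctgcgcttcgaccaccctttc
Serpina1c: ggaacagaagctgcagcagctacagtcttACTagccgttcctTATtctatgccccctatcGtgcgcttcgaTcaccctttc
Serpina1d: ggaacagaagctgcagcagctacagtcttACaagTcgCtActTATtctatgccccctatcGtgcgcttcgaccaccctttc
Serpina1e: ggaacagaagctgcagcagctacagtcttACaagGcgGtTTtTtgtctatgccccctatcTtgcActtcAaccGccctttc
Each stretch is 81 bases (27 codons) long, written 5′ to 3′ along the gene. Serpina1e differed from Serpina1b at 11 bases, more than Serpina1a (6), Serpina1c (8) or Serpina1d (9), and 9 of its 27 codons encode another residue. The Serpina1e stretch is chr12:103947093-103947173 and the Serpina1b stretch is chr12:103728317-103728397.

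Serpina1e (ENSMUSG00000072849.10, chr12:103946931-103958975) had 90.3 CPM in Sham 1, 242 in Sham 2 and 23.0 in Sham 3. After VSG it had 4487 CPM in VSG 4, 6972 in VSG 5 and 7259 in VSG 6. The lowest VSG library was far above the highest Sham library, and the Sham libraries themselves spread over a wide range. The group means were 118 ± 112 and 6239 ± 1525 CPM (SD, n = 3 each), and the log2 fold change was 5.72 (SE 0.905, adjusted p = 0.0154, edgeR). By fold change it ranked 29 of 14454 genes, and 0.816% of all genes rose by more than 10-fold on the fitted scale. The counts behind these values were 2446, 5298 and 606 in Sham and 99154, 163109 and 152181 in VSG, so counting error was small beside the spread between animals. Without VSG 6 the adjusted p was 0.0620 at a log2 fold change of 5.597.

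The other 4 copies did not pass in edgeR. Serpina1b had 1744, 2695 and 2166 CPM in Sham and 1795, 2565 and 2038 CPM in VSG, with fully overlapping groups and a log2 fold change of -0.05 (SE 0.247, adjusted p = 0.911, edgeR). Its sign turned without Sham 2 and without VSG 4. Serpina1d had 620, 1224 and 683 CPM in Sham and 757, 1182 and 975 CPM in VSG, and its log2 fold change was 0.21 (SE 0.311, adjusted p = 0.667, edgeR). These groups overlapped as well.

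Serpina1c had 647, 1187 and 571 CPM in Sham and 905, 1423 and 1150 CPM in VSG, where Sham 2 alone reached into the VSG range (log2 fold change 0.53, SE 0.326, adjusted p = 0.288, edgeR). Serpina1a had 314, 430 and 310 CPM in Sham and 542, 633 and 514 CPM in VSG. The Serpina1a groups did not overlap, and the difference of 0.68 on the log2 scale (SE 0.182) just missed the threshold (adjusted p = 0.0511, edgeR). DESeq2 (adjusted p = 0.00611) and a filter of 10 counts in every library (adjusted p = 0.0479, edgeR) called it, as did the fit without Sham 2 (adjusted p = 0.0490, edgeR). Sham 2 was the highest Sham library for all 5 Serpina1 copies.

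The make-up of the alpha-1 antitrypsin transcripts was set out as the share of each copy. Serpina1e held 2.65%, 4.19% and 0.613% of the summed Serpina1 counts in Sham 1, 2 and 3, and 52.9%, 54.6% and 60.8% in VSG 4, 5 and 6. Serpina1b, the leading copy in Sham with 51.8% ± 5.57 (SD, n = 3), held 19.4% ± 2.11 (SD, n = 3) after VSG. Per length, as a share of summed FPKM, Serpina1e held 2.77% ± 1.95 in Sham and 58.2% ± 3.97 in VSG (SD, n = 3 each). The shares of Serpina1a, Serpina1c and Serpina1d were also lower in every VSG library than in every Sham library. The exact two-sided permutation test gave p = 0.1 for each of the 5 shares, the smallest p that 3 against 3 libraries allow, and 0.143 after Benjamini-Hochberg adjustment over the 10 shares of both families. A share is independent of how libraries are scaled, but shares of one family sum to a fixed total, so a rise in one copy lowers the others.

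The log2 ratio of Serpina1e to the other 4 copies was -5.20, -4.52 and -7.34 in Sham and 0.17, 0.26 and 0.63 in VSG. The mean ratio differed by 6.04 on the log2 scale (exact permutation p = 0.1, adjusted 0.133 over 4 ratios). Those other 4 copies summed to 4197 ± 1178 CPM in Sham and 4826 ± 912 CPM in VSG (SD, n = 3 each), ranges that overlapped. Summing all 5 copies removes the effect of how the counted reads were divided among them, though not that of reads that were left out or counted more than once. The sum was 3415, 5779 and 3753 CPM in Sham and 8484, 12775 and 11936 CPM in VSG, a log2 fold change of 1.36 (adjusted p = 0.0398, edgeR). No single library could be left out of that sum without the adjusted p passing 0.05 (range 0.0520 to 0.171).

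**Figure D2:**
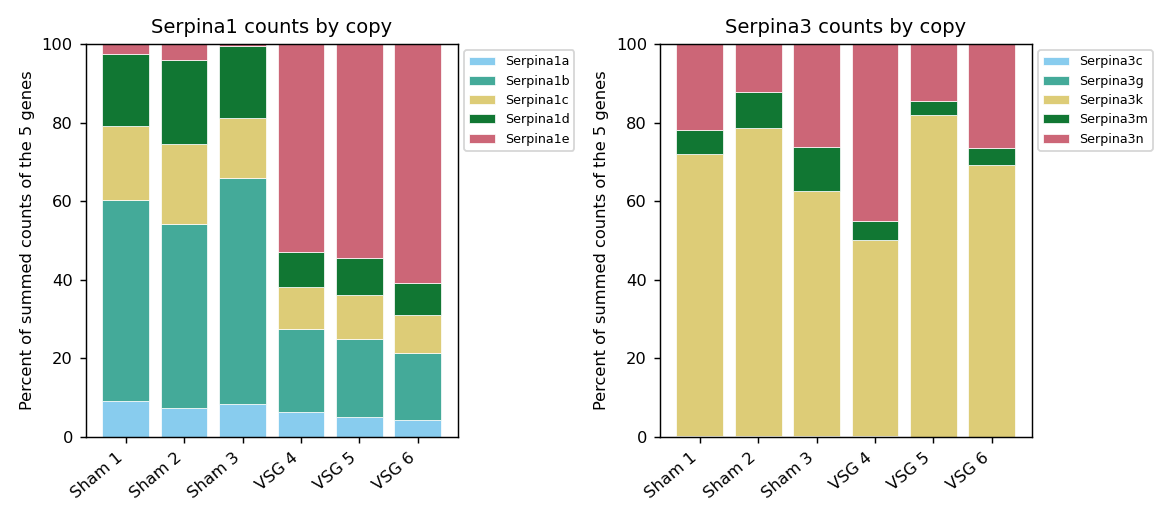
Share of each copy in the summed counts of the 5 Serpina1 genes (left) and of the 5 Serpina3 genes (right), in percent, with 1 stacked bar per library. Serpina1e takes 0.613% to 4.19% of the Serpina1 counts in Sham and 52.9% to 60.8% in VSG, whereas Serpina3k leads the Serpina3 counts in all 6 libraries.

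Near-identical copies can share reads, and whether reads matching several genes were counted was not given in the sources used here. Of all 100-base windows along the transcript, the share also found in a transcript of another gene was 58.5% for Serpina1c, 49.9% for Serpina1a, 29.3% for Serpina1d, 20.6% for Serpina1b and 14.8% for Serpina1e. The read length was not given in the sources used here. With 50-base windows the shared part of Serpina1e was 35.6%, next to 35.8% for Serpina1b, and with 150-base windows it was 7.57%. Gm8893, whose transcript shares windows with all 5 copies, had 106 to 207 counts in Sham and 334 to 511 in VSG. Serpina1c also overlaps 429 exon bases of the antisense gene B430119L08Rik, which had 19 to 43 counts in any library.

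**Figure D3:**
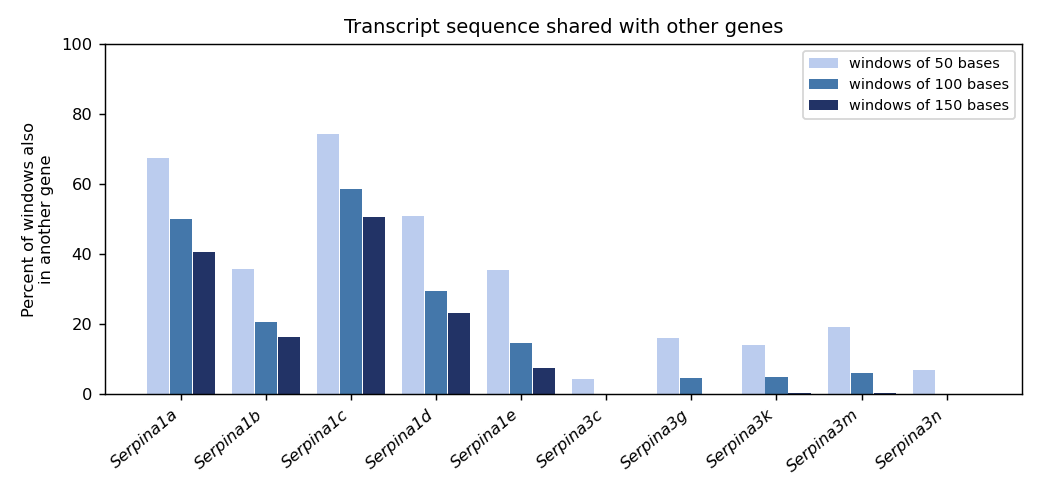
Percent of transcript windows of 50, 100 and 150 bases that also occur in a transcript of another gene, for each member. At 100 bases the Serpina1 copies range from 14.8% (Serpina1e) to 58.5% (Serpina1c), and every Serpina3 member is at or below 6.09%.

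The sequences around the RefSeq starts of the Serpina1 genes are also much alike. RefSeq promoter windows (GRCm38.p6, 250 bases before to 50 after the annotated start) were at hand for 8 of the 10 members. The Serpina1e window is printed beside that of Serpina1b because these copies ended up at opposite extremes of change. Capitals mark matches to the motifs searched on both strands, here GTTAAT (part of the HNF1 site) and TTGCNNAA (a C/EBP-like site).
Serpina1e: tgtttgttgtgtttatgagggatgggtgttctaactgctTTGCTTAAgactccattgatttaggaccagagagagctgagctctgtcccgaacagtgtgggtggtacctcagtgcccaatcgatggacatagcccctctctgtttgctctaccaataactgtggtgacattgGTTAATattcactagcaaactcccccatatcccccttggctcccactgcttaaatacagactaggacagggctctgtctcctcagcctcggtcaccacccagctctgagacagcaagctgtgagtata
Serpina1b: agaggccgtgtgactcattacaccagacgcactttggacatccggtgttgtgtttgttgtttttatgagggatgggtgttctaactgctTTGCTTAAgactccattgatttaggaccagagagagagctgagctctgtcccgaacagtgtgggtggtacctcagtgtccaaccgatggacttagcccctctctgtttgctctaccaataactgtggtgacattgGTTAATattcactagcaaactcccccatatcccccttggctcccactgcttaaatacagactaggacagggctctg
The Serpina1e window is chr12:103956848-103957147 and the Serpina1b window is chr12:103738140-103738439, both read along the minus strand. Both lie inside the longer gene intervals of the count table, which start farther upstream (at 103958975 for Serpina1e and 103830373 for Serpina1b), so the RefSeq starts are not the outermost annotated ones. They were 98.4% identical over the 248 bases that aligned, with 4 mismatches, and the other pairs of Serpina1 windows were 91.7% to 96.6% identical. GTTAAT was in all 5 Serpina1 windows and in 7.10% of 32851 promoter windows. TTGCNNAA was in all Serpina1 windows but that of Serpina1c, against 10.8% of all windows. GTTAAT began 78 bases before the annotated start of Serpina1e and 26 bases before that of Serpina1b, since the starts are annotated at different points of the same sequence.

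The Serpina3 members lie next to the Serpina1 cluster, on chromosome 12 from position 104146382 to 104414329. They are less alike than the Serpina1 copies, with 83.7% coding identity between Serpina3k and Serpina3n and 92.5% between Serpina3k and Serpina3m. The loop part of the 3 abundant members is printed because in it the likeness breaks down. Capitals mark the codons between the ends of the stretch, whose lower-case codons encode the same residues in all 3 genes although some bases differ.
Serpina3k: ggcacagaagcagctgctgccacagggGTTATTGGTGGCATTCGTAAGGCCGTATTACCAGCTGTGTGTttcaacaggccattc
Serpina3m: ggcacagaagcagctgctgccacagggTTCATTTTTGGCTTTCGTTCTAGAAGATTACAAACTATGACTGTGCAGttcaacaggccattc
Serpina3n: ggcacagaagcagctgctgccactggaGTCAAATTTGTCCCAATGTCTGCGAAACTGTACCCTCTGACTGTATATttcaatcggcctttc
The variable part spans 14 codons in Serpina3k and 16 in Serpina3m and Serpina3n. The stretches are chr12:104345269-104345352 for Serpina3k, chr12:104393769-104393858 for Serpina3m and chr12:104413448-104413537 for Serpina3n.

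Serpina3n, the mouse serpin most often compared with human antichymotrypsin and known as an inhibitor of granzyme B and leukocyte elastase, was steady in Sham livers. It had 595, 617 and 671 CPM there, and 4038 CPM in VSG 4, 1339 in VSG 5 and 2774 in VSG 6. All VSG libraries were above all Sham libraries, and the spread lay almost wholly within the VSG group. The means were 628 ± 38.7 and 2717 ± 1350 CPM (SD, n = 3 each), with a log2 fold change of 2.11 (SE 0.396, adjusted p = 0.0217, edgeR). The call was lost without Sham 1, Sham 2, Sham 3 or VSG 6, where the adjusted p ran up to 0.103 and the log2 fold change stayed between 2.07 and 2.16. Of its 50-base windows 6.90% occur in another gene, and of its 100-base windows 0.204%.

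Serpina3k, known as contrapsin or kallikrein-binding protein, had 1947, 3932 and 1593 CPM in Sham and 4484, 7553 and 7261 CPM in VSG. The groups did not overlap, yet Sham 2 came within reach of VSG 4. The means were 2490 ± 1261 and 6432 ± 1694 CPM (SD, n = 3 each), and the difference of 1.37 on the log2 scale (SE 0.419) was not past the threshold (adjusted p = 0.0720, edgeR). It was called by DESeq2 (adjusted p = 0.00397), with library totals as the only scaling (adjusted p = 0.0446, edgeR), without a filter (adjusted p = 0.0464, edgeR) and without Sham 2 (adjusted p = 0.0450, edgeR).

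Serpina3m, whose annotated exons share 60 bases with Serpina3k, had 168, 448 and 281 CPM in Sham and 434, 329 and 454 CPM in VSG, where Sham 2 again reached the VSG range (log2 fold change 0.44, SE 0.346, adjusted p = 0.399, edgeR). Serpina3g, known as an intracellular inhibitor of cathepsins in leukocytes, was low in all livers. It had 7.64, 6.21 and 6.95 CPM in Sham and 12.9, 4.15 and 8.78 CPM in VSG, so the Sham values fell inside the VSG spread (log2 fold change 0.31, SE 0.376, adjusted p = 0.587, edgeR). Its annotation in the count table overlaps another gene on the same strand over 1170 of its 2105 exon bases, and that gene had no counts.

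Serpina3c had almost no reads in Sham livers, with 3, 1 and 0 counts, and 21, 18 and 21 counts after VSG. The Sham counts were at or under the floor of 3 counts used here. The ratio of summed counts per scaled library size was 17.0 (95% exact interval 6.30 to 64.4, which covers counting error only), and the adjusted p was 0.0155 (edgeR). The call was lost without Sham 2 (adjusted p = 0.0519), Sham 3 (0.0538) or VSG 6 (0.0677), and a filter of 10 counts in every library removed the gene. After VSG it had 0.907 ± 0.122 CPM (SD, n = 3).

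Promoter windows were at hand for Serpina3c, Serpina3g and Serpina3n. The windows of Serpina3c and Serpina3n, the called Serpina3 members, are printed because they are 93.5% identical over 294 aligned bases although their levels after VSG differ greatly. In the Serpina3c window the capitals mark the HNF1 letters, here on the other strand, and the TATA-like TATAAA. The Serpina3n window holds no match to these, to the C/EBP-like letters or to the STAT motif, and so no capitals.
Serpina3c: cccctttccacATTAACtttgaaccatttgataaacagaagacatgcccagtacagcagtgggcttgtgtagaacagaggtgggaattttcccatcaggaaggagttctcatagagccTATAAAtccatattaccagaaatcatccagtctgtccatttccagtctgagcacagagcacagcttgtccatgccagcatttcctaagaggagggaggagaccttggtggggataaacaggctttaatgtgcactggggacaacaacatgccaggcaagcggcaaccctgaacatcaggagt
Serpina3n: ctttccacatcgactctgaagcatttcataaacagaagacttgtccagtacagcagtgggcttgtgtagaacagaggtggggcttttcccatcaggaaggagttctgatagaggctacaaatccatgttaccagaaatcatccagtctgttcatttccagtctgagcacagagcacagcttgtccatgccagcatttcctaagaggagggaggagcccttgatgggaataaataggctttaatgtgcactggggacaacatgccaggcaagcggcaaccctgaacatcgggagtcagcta
The Serpina3c window is chr12:104153823-104154122 on the minus strand and the Serpina3n window is chr12:104406458-104406757 on the plus strand. TATAAA was in 13.6% of all promoter windows. The STAT motif, TTCNNNGAA, was in 8.30%. Of the 8 member windows, the STAT motif matched in that of Serpina3g alone, 33 bases before the start.

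Summed over the 5 Serpina3 members, expression was 2718, 5003 and 2551 CPM in Sham and 8969, 9225 and 10499 CPM in VSG. The sum rose by 1.48 on the log2 scale (adjusted p = 0.0347, edgeR). The call was lost without Sham 1, Sham 3, VSG 4 or VSG 6 (adjusted p 0.0654 to 0.150). The VSG sums lay close together although their parts did not. Serpina3n made up 45.0% of the sum in VSG 4, 14.5% in VSG 5 and 26.4% in VSG 6, and Serpina3k made up 49.99%, 81.9% and 69.2%. The share of Serpina3m was 8.72% ± 2.42 in Sham and 4.24% ± 0.642 in VSG (SD, n = 3 each), without overlap (exact permutation p = 0.1, adjusted 0.143 over 10 shares).

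Serpina3n was highest in VSG 4, the liver in which Serpina1e and Serpina3k were at their lowest VSG value. Serpina3n was 6.43, 2.13 and 4.42 times the Sham mean in VSG 4, 5 and 6. Serpina1e was 37.9, 58.9 and 61.3 times its Sham mean there, and Serpina3k 1.80, 3.03 and 2.92 times. The count ratio of Serpina1e to Serpina3k was 1.001, 0.923 and 0.9998 in the VSG libraries, where it had been 0.0464, 0.0616 and 0.0145 in Sham. The neutrophil marker sum followed the Serpina3n order, with VSG 4 highest and VSG 5 lowest. So did the summed acute phase genes, at 139081, 64508 and 118028 CPM in VSG 4, 5 and 6. VSG 5 was the lowest VSG library for every gene of that list but Hamp, which had 575, 675 and 225 CPM. Cp and Crp were highest in VSG 6.

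The 5 genes whose log2 CPM followed Serpina3n most closely over the 6 libraries, among 9956 genes of at least 5 CPM, were Txlna (Pearson r = 0.998), Stk38 (0.997), Vps37b (0.996), Hp (0.996) and Mapk8ip3 (0.995). These are descriptions over 6 libraries of 2 groups, and 7.31% of the genes compared had an r over 0.9. Hp encodes haptoglobin, the haemoglobin-binding acute phase protein of the liver. It was 4.71, 1.93 and 4.07 times its Sham mean in VSG 4, 5 and 6.

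**Figure D4:**
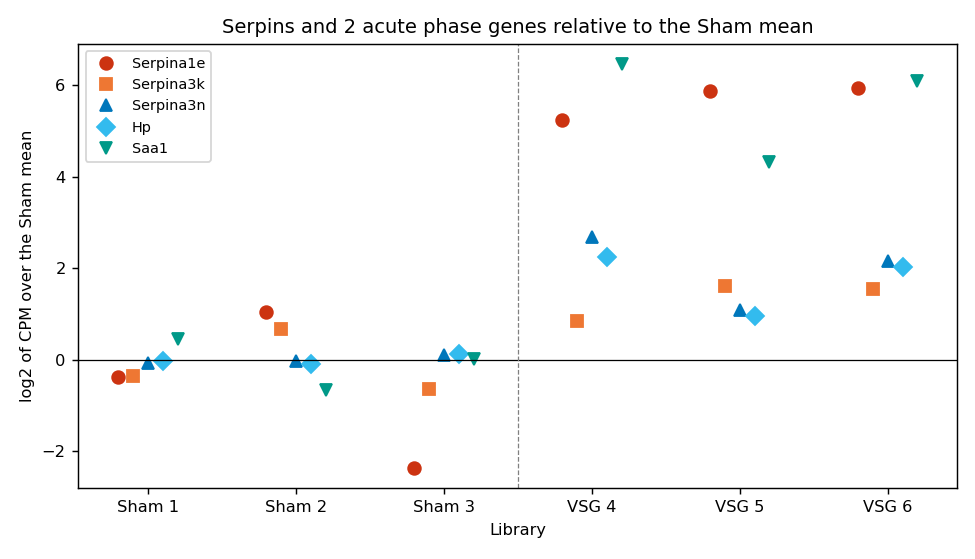
Log2 of the CPM in each library over the Sham mean of the same gene, for Serpina1e, Serpina3k and Serpina3n beside the acute phase genes Hp and Saa1; the dashed line parts Sham from VSG. In VSG 5, Serpina3n, Hp and Saa1 are at their lowest VSG value, whereas Serpina3k is at its highest. Hp was taken for its correlation with Serpina3n, and Saa1 after its values were seen.

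Per length, the order of the 10 genes changed between the groups. In Sham livers Serpina3k led with 1211 ± 613 FPKM (SD, n = 3), followed by Serpina1b with 912 ± 197, Serpina1d with 604 ± 238 and Serpina1c with 589 ± 247. These neighbours overlapped in their spread. The exon length of Serpina1b was 2415 bases, against 1762 for its longest coding transcript, so its place depends on the length used. Serpina3n had 304 ± 18.7 FPKM, Serpina1a 192 ± 37.1, Serpina3m 174 ± 81.9 and Serpina1e 73.3 ± 69.4. Serpina1a and Serpina3m overlapped within their SD, as did Serpina3m and Serpina1e, while Serpina3n and Serpina1a did not. Serpina3g had 3.30 ± 0.340 and Serpina3c 0.0236 ± 0.0252 FPKM.

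After VSG, Serpina1e led with 3859 ± 943 FPKM (SD, n = 3) and Serpina3k followed with 3127 ± 823, a pair within each other's spread. Serpina3n came next with 1316 ± 654 FPKM, above Serpina1b (883 ± 163) and Serpina1c (852 ± 191) in the mean but within their spread. Serpina1d had 697 ± 153, Serpina1a 307 ± 34.0 and Serpina3m 236 ± 39.2 FPKM. Serpina1d and Serpina1a were farther apart than their SD, whereas Serpina1b, Serpina1c and Serpina1d were not. Serpina3g (4.09 ± 2.08) and Serpina3c (0.410 ± 0.0551) stayed at the low end.

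Of 7 further Serpina1 and Serpina3 genes, 3 had enough counts to be tested and none passed in edgeR (1 at an unadjusted p under 0.05 and 1 by DESeq2, and 2 in edgeR without VSG 5). Serpina3f had 6.58 ± 1.09 CPM in Sham and 9.55 ± 5.38 in VSG, Serpina3h 0.317 ± 0.164 and 0.612 ± 0.332, and Serpina3i 0.293 ± 0.197 and 1.94 ± 1.98 (SD, n = 3 each). The adjusted p was 0.443, 0.262 and 0.107 (edgeR). Serpina1f, Serpina3a, Serpina3b and Serpina3j had at most 14 counts in any library.

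Other clade A serpins gave 4 higher and 0 lower genes of 8 tested (edgeR; 1 lower at an unadjusted p under 0.05 and by DESeq2). Serpina10, the protein Z-dependent inhibitor of coagulation factor Xa, had 218, 210 and 206 CPM in Sham and 731, 506 and 629 CPM in VSG (log2 fold change 1.56, SE 0.168, adjusted p = 0.00673, edgeR). Serpina11 had 14.1 ± 1.26 CPM in Sham and 40.3 ± 6.11 in VSG (SD, n = 3 each; log2 fold change 1.51, adjusted p = 0.00429, edgeR), and this call stood under all 13 alternatives run. The groups did not overlap for either gene. The count of 4 includes Serpina4-ps1 and Serpina9, described next. It became 1 without Sham 3 and 2 with a filter of 10 counts in every library.

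The pseudogene Serpina4-ps1 had 15, 36 and 5 counts in Sham and 339, 1457 and 217 in VSG, with VSG 5 highest (adjusted p = 0.0216, edgeR). The call was lost in 4 of 12 alternatives. Serpina9, known from germinal centre B cells, had 0, 1 and 1 counts in Sham and 16, 18 and 11 in VSG (ratio 25.5, 95% exact interval 6.66 to 217 for counting error, adjusted p = 0.0111, edgeR), counts too few for a firm level. Serpina4-ps1, with 5 counts in Sham 3, and Serpina9 were both tested only because of their VSG counts.

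The carriers and the hormone precursor of the clade did not pass in edgeR. Serpina6, corticosteroid-binding globulin, had 234, 489 and 289 CPM in Sham and 44.1, 206 and 79.7 CPM in VSG. All VSG values were below all Sham values, with the highest VSG library close to the lowest Sham library (log2 fold change -1.61, SE 0.578, adjusted p = 0.104, edgeR). DESeq2 called it lower (adjusted p = 0.0162), as did edgeR without VSG 5 (adjusted p = 0.0179). Serpina7, thyroxine-binding globulin (0.16, adjusted p = 0.581), Serpina12, the adipokine vaspin (-0.21, adjusted p = 0.747), and Agt, angiotensinogen (-0.05, adjusted p = 0.868), had small log2 fold changes whose sign turned when single libraries were left out. Serpina5 had at most 3 counts in any library and Serpina16 had none.

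**Figure D5:**
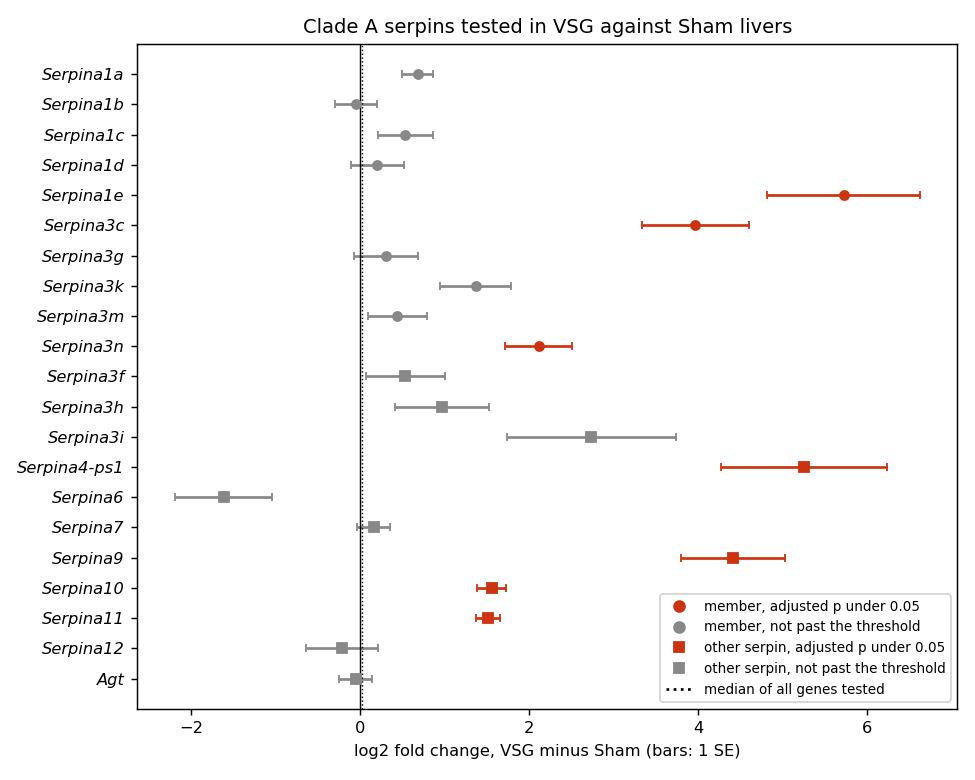
Log2 fold change (VSG minus Sham) with 1 SE for the 10 members (circles) and the other clade A serpins tested (squares), red where the adjusted p is under 0.05; the dotted line is the median of all genes tested (0.03). Serpina1e (5.72) and Serpina4-ps1 (5.25) are farthest to the right and Serpina6 (-1.61) farthest to the left.

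Among 13 serpins of other clades, 2 rose and 1 fell, or 23.1% against 14.7% over all genes (edgeR; 3 and 2 at an unadjusted p under 0.05, 2 and 2 by DESeq2). The 3 calls became 1 without Sham 1 and 0 without Sham 3 or VSG 6. Serping1, the C1 inhibitor of complement, went from 694 ± 54.2 to 1533 ± 262 CPM (SD, n = 3 each; adjusted p = 0.0168, edgeR), and Serpinf2, alpha-2 antiplasmin, from 526 ± 63.1 to 879 ± 101 CPM (adjusted p = 0.0337, edgeR). Serpinb8 fell from 14.7 ± 1.80 to 7.64 ± 1.84 CPM (adjusted p = 0.0302, edgeR). Serpinc1, antithrombin, with the highest CPM of the list (not corrected for length), had 1614 ± 247 and 1644 ± 210 CPM (adjusted p = 0.938, edgeR).

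Of 14 secreted protease inhibitors outside the serpin family, 10 were higher and 0 lower after VSG (edgeR; 13 higher and 0 lower at an unadjusted p under 0.05, 12 and 0 by DESeq2), with a median log2 fold change of 1.35 against 0.03 over all genes. Itih3 and Itih4, heavy chains of the inter-alpha-trypsin inhibitor family, rose by 2.54 (SE 0.274, adjusted p = 0.00673, edgeR) and 1.69 (SE 0.223, adjusted p = 0.0101, edgeR) on the log2 scale. Pzp, an alpha-2-macroglobulin type protease trap with the highest CPM of these, had 5624 ± 497 CPM in Sham and 19037 ± 5580 in VSG (SD, n = 3 each; adjusted p = 0.0248, edgeR). The 10 calls became 4, 5 and 0 without Sham 1, 2 or 3, and 5 and 1 without VSG 4 or VSG 6.

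The proteases that clade A serpins act on gave 3 higher and 1 lower gene of 15 tested (edgeR; 6 and 2 at an unadjusted p under 0.05 and by DESeq2, 1 and 1 by limma-voom). The 3 were the neutrophil granule enzymes Prtn3, Elane and Ctsg. All 3 had Sham counts under 10 in every library and so were tested only because of their VSG counts. The 4 calls became 1 with a filter of 10 counts in every library and when Sham 1, Sham 2, Sham 3 or VSG 6 was left out. Elane, neutrophil elastase, had 6, 2 and 2 counts in Sham and 786, 50 and 406 in VSG (adjusted p = 0.0184, edgeR), and Prtn3, proteinase 3, had 6, 4 and 4 against 1137, 457 and 854 (adjusted p = 0.00177, edgeR). Both were highest in VSG 4 and lowest in VSG 5, the order of Serpina3n. Cela1, pancreatic-type elastase, fell from 8.45 ± 0.381 to 4.87 ± 0.913 CPM (SD, n = 3 each; adjusted p = 0.0316, edgeR), and F2, prothrombin, had 1418 ± 201 and 1542 ± 126 CPM (adjusted p = 0.667, edgeR).

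All 15 acute phase genes of the list rose, with a median log2 fold change of 2.74. Apcs, serum amyloid P, went from 92.3 ± 9.46 to 1501 ± 745 CPM (SD, n = 3 each; adjusted p = 0.00645, edgeR) and Fgg, a fibrinogen chain, from 2129 ± 202 to 10668 ± 1537 CPM (adjusted p = 0.00721, edgeR). Hpx, the haem-binding hemopexin, had the highest CPM of the list, 4370 ± 774 and 17806 ± 6976 CPM (adjusted p = 0.0260, edgeR). Against these, the median over the 10 members was 0.61. The 15 calls became 8 without Sham 2, 1 without Sham 3 and 5 without VSG 6.

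Among 14 regulators of the STAT3 and C/EBP routes that drive acute phase genes, 5 rose and 0 fell, or 35.7% (edgeR; 7 and 0 at an unadjusted p under 0.05, 6 and 0 by DESeq2). Stat3 itself had 126 ± 7.83 CPM in Sham and 257 ± 26.0 in VSG (SD, n = 3 each; adjusted p = 0.00809, edgeR), and Socs3, its feedback inhibitor, 6.49 ± 2.27 and 35.3 ± 11.7 CPM (adjusted p = 0.0104, edgeR). Il6st, the shared receptor chain gp130, had 264 ± 12.3 and 402 ± 10.98 CPM (adjusted p = 0.0218, edgeR). The other 2 were the receptors Il1r1 and Osmr, named after their values were seen. None of the C/EBP genes Cebpa, Cebpb and Cebpd, also named afterwards, passed. Their log2 fold changes were 0.18, -0.45 and -0.05 (adjusted p = 0.480, 0.459 and 0.947, edgeR). The 5 calls became 3 without Sham 1 or Sham 2, 0 without Sham 3 and 1 without VSG 6.

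Of 12 hepatocyte factors known from serpin promoters, 2 rose and 0 fell, or 16.7%, close to the 14.7% called over all genes (edgeR; 2 and 0 also at an unadjusted p under 0.05 and by DESeq2). The 2 calls became 0 without Sham 1, Sham 3 or VSG 4, and 1 without Sham 2, VSG 5 or VSG 6. Foxa3 had 37.6 ± 5.01 CPM in Sham and 59.7 ± 5.69 in VSG (SD, n = 3 each; adjusted p = 0.0230, edgeR), and Onecut1 (HNF6) 3.67 ± 1.21 and 19.3 ± 11.1 CPM (adjusted p = 0.0341, edgeR). Hnf4a, with the highest CPM of the list, had 602 ± 43.6 and 776 ± 132 CPM (adjusted p = 0.194, edgeR). None of 13 genes for the folding and secretion of serpins passed the test in edgeR (4 were higher at an unadjusted p under 0.05 and by DESeq2, and 4 were called by edgeR without VSG 5), and Hsp90b1, with the highest CPM of the list, had 658 ± 65.0 and 1027 ± 210 CPM (adjusted p = 0.0759, edgeR).

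Cells other than hepatocytes were followed with fixed marker lists. The neutrophil list was higher in 10 of 10 genes in edgeR and DESeq2 and in 3 by limma-voom. Most of these genes were tested only because of their VSG counts, as given above. S100a9 had the highest CPM of the list, 2.74 ± 2.12 CPM in Sham and 269 ± 251 in VSG (SD, n = 3 each). S100a8 (adjusted p = 0.0166, edgeR) and Retnlg (adjusted p = 0.0141, edgeR) were among the 10. Of 8 macrophage markers 3 were higher (edgeR; 4 at an unadjusted p under 0.05 and by DESeq2), among them Marco (12.3 ± 12.5 and 385 ± 294 CPM, adjusted p = 0.0269, edgeR) and Clec4f of Kupffer cells (75.3 ± 17.3 and 177 ± 46.9 CPM, adjusted p = 0.0260, edgeR). The summed macrophage markers ran from 303 to 582 CPM in Sham and 618 to 1760 in VSG.

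Of 5 bile duct markers tested, Sox9 was higher in edgeR and DESeq2 (8.44 ± 2.53 and 29.0 ± 15.8 CPM, adjusted p = 0.0359, edgeR) but not in either limma fit. The other 4, among them Spp1 with the highest CPM of the list, had log2 fold changes of -0.45 to -1.20 and did not pass, and the list median was -0.76. All 6 stellate cell markers had negative log2 fold changes (median -1.11), and 1 passed in edgeR, Reln (150 ± 10.1 and 62.1 ± 25.5 CPM, adjusted p = 0.0328). DESeq2 called 5 of the 6 as lower, and 5 had an unadjusted p under 0.05 in edgeR. Their summed CPM was 589 to 890 in Sham and 280 to 550 in VSG. No gene of the lymphocyte (8 tested) or sinusoidal endothelial (6 tested) lists passed in edgeR or DESeq2 (1 of each at an unadjusted p under 0.05), and no pancreas marker had enough counts. The summed hepatocyte and endothelial markers overlapped between the groups. The lymphocyte sum, 8.02 to 8.05 CPM in Sham and 8.63 to 15.4 in VSG, did not. The part of any of these cells in the serpin values was not tested.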

How the data were processed

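Per the study's methods and the submitters' processing notes, the authors made strand-specific poly(A) libraries, aligned reads with STAR 2.6.0 to mm10 and counted them with featureCounts. The deposited values are raw read counts per gene with an exon length, not normalised. The annotation release and the handling of multi-mapping reads and strand were not given in the sources used here. Symbols came from GENCODE M21, in which 55144 of 55385 identifiers matched without the version. For Serpina3g the coordinates differ from that release.

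Groups came from the sample titles (3 Sham, 3 VSG). Counts passing filterByExpr (minimum 10, minimum total 15) were scaled with TMM factors (0.897 to 1.15) and tested with edgeR 4.0.16 in R 4.3.3 (glmQLFit, glmQLFTest, group as the only term). P-values were adjusted by Benjamini-Hochberg over 14454 genes, with a threshold of 0.05. FPKM was computed from the scaled CPM and the exon length. The fit was tried on simulated counts with the same spread for all genes, which does not test it at the spread of these livers. Libraries of a group differed beyond counting noise (chi-square per degree of freedom at least 25.2), so none was counted as a repeat. P-values measure the spread between these livers, and whether the mice shared a cage or day was not given. Intervals and the floor of 3 counts (0.124 to 0.132 CPM of raw totals) cover counting error only.

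The members and gene lists were chosen with earlier results of these data known. Named genes were the 10 members, the other clade A serpins, from each other list the 2 with the smallest p-value in each direction among those called and the one with the highest mean CPM, and the 5 genes most correlated with Serpina3n (log2 CPM, prior count 2). Ctsg, Il1r1, Osmr, Saa1, Cebpa, Cebpb, Cebpd, Hamp, Cp, Crp, Csf3r and Ghr were added after their values were seen. Alternatives were DESeq2 1.42.0, limma 3.58.1 (voom, and log2(FPKM + 1)), RLE factors, library totals, no filter, 10 counts in every library and leaving out each library.

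Transcript sequences were read from GENCODE M21. Shared windows used the longest coding transcript of each gene, and coding and loop sequences the coding transcript with the longest reading frame. Promoters came from RefSeq (GRCm38.p6) and were at hand for 8 members and not used here for Serpina3k and Serpina3m.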

Additional observations from a re-analysis of the deposited data

How the results depend on the processing

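No paired analysis was possible because the libraries are numbered 1 to 6 across both groups and share no replicate number. The number of genes called was 2118 with edgeR and 3252 with DESeq2, and leaving out 1 library gave 159 (without Sham 3) to 2732 (without VSG 5). With library totals as the only scaling the median log2 fold change of all genes was -0.11 in place of 0.03, and the calls were 486 higher and 1512 lower in place of 981 and 1137. On the log2(FPKM + 1) scale, also by library totals, they were 407 and 1530. The members called numbered 3, against 5 with DESeq2, 4 with library totals or no filter, and 0 to 3 with 1 library left out. The genes called in the fixed lists, without the members and the cell marker lists, numbered 43, with 3 to 54 when 1 library was left out. The summed Serpina1 copies had a log2 fold change of 1.24 (adjusted p = 0.0662, limma) on the log2(FPKM + 1) scale and 1.21 to 1.62 with 1 library left out (adjusted p 0.0520 to 0.171, edgeR). The summed Serpina3 copies had 1.30 to 1.86 (adjusted p 0.0275 to 0.150, edgeR). As shares of summed FPKM in place of counts, VSG minus Sham was -25.8 points for Serpina1b, -11.5 for Serpina1c and -14.6 for Serpina1d. In counts it was -32.4, -7.76 and -10.4, because FPKM weights genes of short exon length more. With 1 library left out, signs turned for Serpina1b (range -0.22 to 0.12, 0.07 without VSG 4), Serpina3g (-0.11 without VSG 4, up to 0.62), Serpina7 (-0.019 to 0.25), Serpina12 (-0.53 to 0.29, 0.04 without VSG 5) and Agt (-0.21 to 0.12, 0.0033 without VSG 6), none of them past the threshold in any of these fits. The cause of these changes was not tested, apart from the smaller number of libraries. The call of Serpina1e was lost only without VSG 6 (adjusted p = 0.0620, edgeR) of 13 alternatives. With 3 libraries a group, differences of the size of Serpina1c or Serpina3m lay within the spread between animals, and the counts of Serpina3c and Serpina9 are too few for a firm Sham level.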
